A study of Saccharomyces cerevisiae with 20 samples.

Results

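The 9 genes described here encode heat shock proteins and other proteins that Saccharomyces cerevisiae makes in quantity under stress. They were the rows of the deposited tables named YFL014W (HSP12), YBR072W (HSP26), YDR171W (HSP42), YLL026W (HSP104), YCR021C (HSP30), YBL075C (SSA3), YER103W (SSA4), YGR088W (CTT1) and YOL052C-A (DDR2). They were chosen by name from what they are known to encode, at a time when earlier results of these data were known. They made up 9 of the 6532 features of the tables. None was merged with another gene, none overlapped an annotated gene, and all 9 had a mean count of at least 10 reads per library, the minimum for testing. Each is described in every library, and the arrest with mating pheromone is described within each strain.

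Stressed yeast cells switch on protective genes mainly through heat shock factor Hsf1, which binds heat shock elements, and through the paired activators Msn2 and Msn4, which bind the stress response element. Protein kinase A, active in growing cells with ample glucose, keeps Msn2 and Msn4 out of the nucleus, so many of their targets also follow nutrients and growth. Set1 is the enzyme within the COMPASS complex that places methyl groups on lysine 4 of histone H3 at transcribed genes.

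The strain labelled delta_set1 (set1Δ below) lacks SET1, and the wild type (WT) is labelled W303a, a laboratory strain whose cells are of mating type a. The sources used here do not say how SET1 was deleted or how many clones were grown. Both strains grew at 30 °C in rich glucose medium and were held for about 2 h with 5 µg/ml α-factor, the peptide pheromone that arrests a cells before budding, until nearly all cells were unbudded. The pheromone was washed out with a Tris buffer, the cells went into prewarmed fresh medium, and aliquots were frozen every 15 min. Each strain gave 10 libraries, 1 from the asynchronous culture before pheromone and 1 at each of 0, 15, 30, 45, 60, 75, 90, 105 and 120 min after release, so no strain and time point was repeated.

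PAT-seq reads the 3′ end of polyadenylated RNA, and levels are given in CPM, read counts per 1000000 reads of the TMM-scaled library. Libraries held 476565 to 2413354 reads, with a median of 1524255. SET1 itself had 5.85 to 15.1 CPM (6 to 35 reads) in set1Δ libraries and 30.1 to 64.9 CPM (22 to 150 reads) in WT libraries, a log2 difference of −2.16 ± 0.13 (SE, adjusted p = 6.36e-08, edgeR). Reads with a poly(A) tail made up 52.4% to 76.3% of set1Δ libraries and 32.2% to 91.7% of WT libraries, lowest in the WT libraries at 120 min (32.2%) and 105 min (51.3%). Pheromone response genes checked the arrest: 7 of 8 rose at 0 min over both strains, among them PRM1 (log2 change 5.27), which acts in the fusion of mating cells, and the mating transcription factor KAR4 (3.23). Summed, these 8 genes reached 5388 CPM at 0 min in set1Δ and 8158 CPM at 0 min in WT. All 6 markers of a cells were detected, with sums of 481 to 19850 CPM in set1Δ libraries and 2441 to 18950 CPM in WT libraries. Markers of α cells summed to 19.5 to 74.9 CPM in set1Δ libraries and 9.78 to 34.1 CPM in WT libraries, highest at 0 min in each strain, against 25.1 CPM in the asynchronous culture of set1Δ and 14.3 CPM in that of WT. Those of sporulating cells summed to 5.45 to 19.9 CPM in set1Δ libraries and 4.51 to 31.0 CPM in WT libraries. Fewer expressing cells and less RNA per cell cannot be told apart in these bulk cultures.

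In the reference assembly R64, HSP12 lies on chromosome VI at 107256 to 107585, HSP26 on II at 382030 to 382674, HSP42 on IV at 806621 to 807748, and HSP104 on XII at 88623 to 91349, all on the plus strand. SSA4 lies on V at 364589 to 366517 and CTT1 on VII at 654634 to 656322, also on the plus strand. HSP30 lies on III at 156109 to 157107, SSA3 on II at 84499 to 86448 and DDR2 on XV at 231570 to 231755, on the minus strand. The next gene downstream runs on the opposite strand for HSP12 (IES1, 266 bp away), HSP26 (YBR072C-A, 185 bp), HSP30 (HTL1, 552 bp) and DDR2 (AIM39, 297 bp). The strand setting of the authors' counting was not given, so reads of such facing genes may not be separated. SSA3 and SSA4 are similar in sequence and may share reads.

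The promoters differed in their motifs, and stretches of 7 are shown because they hold most of the matches or, for SSA3, none. The stress response element was searched as CCCCT or AGGGG and the heat shock core as GAANNTTC or TTCNNGAA, in the 500 bases before each start codon. Each sequence below reads toward its gene, and capitals mark the matches.
HSP42: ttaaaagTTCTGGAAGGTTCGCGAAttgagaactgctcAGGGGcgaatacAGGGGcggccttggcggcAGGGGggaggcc
HSP104: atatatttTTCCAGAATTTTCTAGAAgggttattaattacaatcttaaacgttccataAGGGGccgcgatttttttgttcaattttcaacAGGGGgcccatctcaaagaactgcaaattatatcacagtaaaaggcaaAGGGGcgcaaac
HSP26: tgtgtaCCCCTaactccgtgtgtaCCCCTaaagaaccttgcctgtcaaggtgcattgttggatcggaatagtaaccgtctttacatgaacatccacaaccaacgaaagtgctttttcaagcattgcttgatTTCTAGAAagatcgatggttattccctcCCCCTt
HSP12: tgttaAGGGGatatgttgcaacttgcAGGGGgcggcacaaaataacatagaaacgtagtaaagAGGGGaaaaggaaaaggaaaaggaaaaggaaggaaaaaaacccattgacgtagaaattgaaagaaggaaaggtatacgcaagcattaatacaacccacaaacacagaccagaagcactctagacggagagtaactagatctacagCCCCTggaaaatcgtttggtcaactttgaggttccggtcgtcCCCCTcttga
CTT1: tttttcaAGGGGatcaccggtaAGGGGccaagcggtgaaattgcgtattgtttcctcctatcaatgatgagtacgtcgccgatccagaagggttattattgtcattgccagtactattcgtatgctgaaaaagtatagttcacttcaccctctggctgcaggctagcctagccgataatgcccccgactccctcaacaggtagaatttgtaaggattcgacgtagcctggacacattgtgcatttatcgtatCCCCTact
DDR2: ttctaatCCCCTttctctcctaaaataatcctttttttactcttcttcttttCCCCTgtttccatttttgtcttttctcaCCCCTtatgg
SSA3: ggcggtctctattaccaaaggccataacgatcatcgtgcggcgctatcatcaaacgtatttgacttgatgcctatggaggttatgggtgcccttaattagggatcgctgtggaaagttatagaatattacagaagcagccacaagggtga
The stretches end 126 to 181 bases before the start codon (321 bases for HSP26) and were read from the NCBI RefSeq genome. Their places are IV:806371-806450 for HSP42, XII:88313-88462 for HSP104, II:381545-381709 for HSP26, VI:106816-107075 for HSP12, VII:654249-654508 for CTT1, XV:231921-232010 (minus strand) for DDR2 and II:86599-86748 (minus strand) for SSA3.

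Most members held several stress response elements. The 500-base windows held 5 in HSP12, 4 in DDR2, 3 each in HSP26, HSP42, HSP104, SSA4 and CTT1, and 0 in HSP30 and SSA3. Windows with at least 1 made up 34.1% of the 6000 protein-coding genes, and those with at least 3 made up 1.83%, against 7 of these 9 genes. Heat shock cores numbered 3 in HSP42 and 3 in HSP104, each triplet in 1 overlapping run, 1 each in HSP26, SSA4, CTT1 and DDR2, and 0 in HSP12, HSP30 and SSA3. At least 1 core was found in 35.2% of all windows and at least 3 in 1.78%. A match is a description of the letters and not a mapped binding site.

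HSP12 encodes a small membrane-associated stress protein that is a widely used reporter of Msn2 and Msn4. In set1Δ it had 106 CPM in the asynchronous culture, 36.1 CPM at 0 min and 871 CPM at 15 min, then 672, 523, 207, 64.0, 49.0, 44.5 and 52.7 CPM from 30 to 120 min. In WT it had 158 CPM in the asynchronous culture, 433 CPM at 0 min and 1635 CPM at 15 min, then 1242, 752, 311, 98.4, 75.2, 55.1 and 41.1 CPM. Both strains peaked at 15 min and declined to 105 min, and the set1Δ value was below the WT value at 9 of 10 time points, the exception being 120 min.

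HSP42 encodes a small heat shock chaperone that binds unfolded protein, also without heat stress. In set1Δ it had 37.7 CPM in the asynchronous culture, 25.8 CPM at 0 min and 97.7 CPM at 15 min, then 59.2, 51.4, 53.3, 62.8, 56.8, 44.5 and 56.3 CPM. For WT it was 39.4 CPM in the asynchronous culture, 101 CPM at 0 min and 233 CPM at 15 min, then 118, 119, 102, 89.0, 102, 96.8 and 63.3 CPM. The asynchronous cultures differed least (log2 difference −0.06), and set1Δ was below WT at 10 of 10 time points.

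HSP26 encodes the other major small heat shock chaperone. In set1Δ it had 9.52 CPM in the asynchronous culture, 17.4 CPM at 0 min and 88.4 CPM at 15 min, then 70.7, 37.4, 16.1, 16.5, 19.5, 15.6 and 24.5 CPM. In WT it had 7.36 CPM in the asynchronous culture, 38.6 CPM at 0 min and 63.0 CPM at 15 min, then 31.6, 21.6, 14.8, 8.57, 11.3, 19.6 and 26.6 CPM. Unlike HSP42, it was higher in set1Δ at 7 of 10 time points, and lower only at 0, 105 and 120 min. HSP104 encodes the disaggregase that pulls single proteins out of aggregates together with Hsp70. It had 47.6 CPM in the asynchronous set1Δ culture, 55.5 CPM at 0 min, 79.0 CPM at 15 min and 53.5 to 80.3 CPM later. WT cells had 33.8 CPM in the asynchronous culture, 69.7 CPM at 0 min, 109 CPM at 15 min and 33.1 to 62.5 CPM later. It moved little in set1Δ and formed a peak at 15 min in WT.

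SSA3 and SSA4 encode stress-inducible cytosolic Hsp70 chaperones. SSA4 had 105 CPM in the asynchronous set1Δ culture, 69.1 CPM at 0 min and 582 CPM at 15 min, then 264, 172, 152, 113, 121, 169 and 92.3 CPM. In WT it had 87.4 CPM in the asynchronous culture, 303 CPM at 0 min and 467 CPM at 15 min, then 227, 216, 161, 150, 132, 256 and 434 CPM. The late WT values stood beside a small share of SSA4 reads with a poly(A) tail, 14.4% at 105 min and 11.0% at 120 min, against 25.6% to 70.0% at the other WT time points. SSA3 had no peak at 15 min common to the strains. It had 211, 201 and 279 CPM in the asynchronous, 0 min and 15 min libraries of set1Δ and 159 to 368 CPM later. The WT course had 210, 350 and 280 CPM in those libraries and 117 to 768 CPM later, the highest at 120 min. Only 9.30% of SSA3 reads (794 of 8536) carried a poly(A) tail, and 0.553% of tested features had a lower share. The median share of tested features was 83.4%, and the other members had 36.5% (SSA4), 43.9% (HSP26), 49.0% (DDR2), 53.2% (CTT1), 71.3% (HSP104), 79.1% (HSP30), 87.4% (HSP42) and 89.9% (HSP12). Whether reads without a tail come from these mRNAs was not tested.

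CTT1 encodes the cytosolic catalase that breaks down hydrogen peroxide, and DDR2 encodes a small protein induced by many stresses. CTT1 had 8.22 CPM in the asynchronous set1Δ culture, 2.58 CPM at 0 min and 84.8 CPM at 15 min, then 7.64, 9.94, 14.1, 14.6, 10.9, 13.8 and 7.93 CPM. In WT it had 8.22 CPM in the asynchronous culture, 31.1 CPM at 0 min and 80.5 CPM at 15 min, then 13.7, 16.9, 7.94, 13.1, 16.6, 9.80 and 17.8 CPM. CTT1 had 4 reads at 30 min in set1Δ and 23 in WT. By then its level was down from the spike in both strains, unlike the slow decline of HSP12. DDR2 behaved likewise, with 4.76 CPM in the asynchronous set1Δ culture, 2.58 CPM at 0 min, 32.2 CPM at 15 min and 4.09 to 7.64 CPM later. WT libraries had 4.33 CPM in the asynchronous culture, 10.4 CPM at 0 min, 34.1 CPM at 15 min and 3.67 to 11.3 CPM later. At 30 min DDR2 had 4 reads in set1Δ and 11 in WT. HSP30, which encodes a plasma membrane protein that restrains the proton pump Pma1, was counted from few reads, 1 to 27 per set1Δ library and 4 to 19 per WT library. It had 5.19 CPM in the asynchronous set1Δ culture and 0.645 to 19.5 CPM after release, highest at 120 min. WT cells had 4.76 CPM in the asynchronous culture and 3.76 to 13.3 CPM after release, also highest at 120 min.

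**Figure D1:**
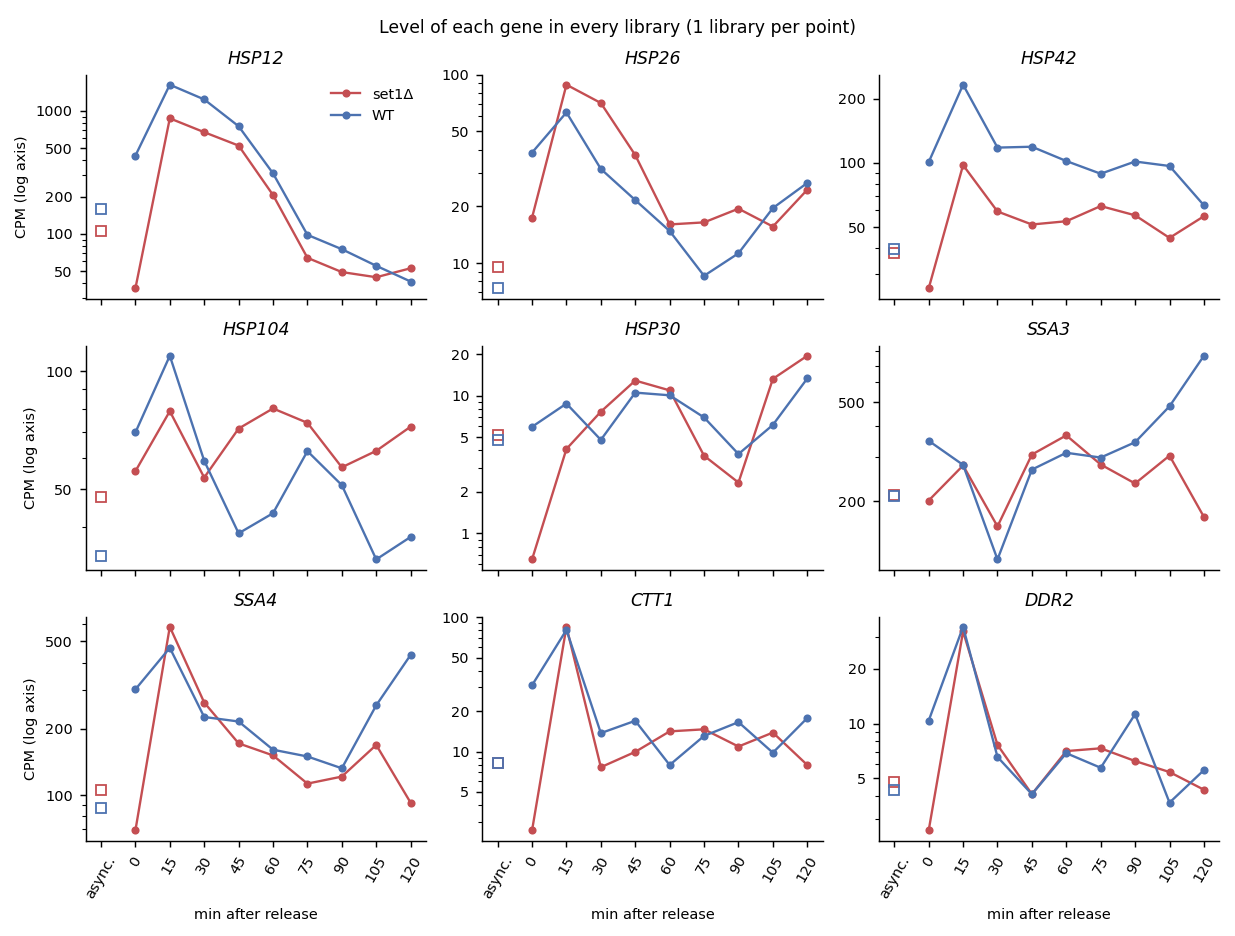
Level of each gene (CPM, log axis, scaled per panel) against minutes after release from α-factor, with 1 library per point; set1Δ in red, WT in blue, open squares for the asynchronous cultures. At 0 min set1Δ lies below WT in all 9 panels, and by 15 min the strains are close for CTT1 (84.8 and 80.5 CPM) and DDR2 (32.2 and 34.1 CPM).

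The arrest was first compared within each strain, as the level at 0 min against that of the asynchronous culture. With 1 library on each side there is no test, and the intervals below cover counting error only. In set1Δ, HSP12 had 36.1 CPM at 0 min (56 reads) and 106 CPM in the asynchronous culture (245 reads), a ratio of 0.341 with a 95% exact counting interval of 0.250 to 0.457. In WT, HSP12 had 433 CPM at 0 min (292 reads) and 158 CPM in the asynchronous culture (366 reads), a ratio of 2.73 (2.34 to 3.20). The direction was opposite in the strains, and neither interval reached a ratio of 1.

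SSA4 and CTT1 had the same opposition. SSA4 at 0 min over the asynchronous culture gave a ratio of 0.657 (0.518 to 0.828) in set1Δ and 3.46 (2.84 to 4.23) in WT. CTT1 gave 0.314 (0.0777 to 0.945) in set1Δ, from 4 reads at 0 min and 19 reads before, and 3.79 (1.94 to 7.45) in WT, from 21 and 19 reads. For CTT1 in WT only 4 of the 21 reads at 0 min and 13 of the 19 before carried a poly(A) tail, and on poly(A) reads alone its log2 change was 0.11. HSP42 gave 0.686 (0.459 to 1.01) in set1Δ and 2.56 (1.84 to 3.55) in WT. HSP26 was above 1 in both strains, at 1.83 (1.00 to 3.37) in set1Δ and 5.24 (2.74 to 10.3) in WT, and so was HSP104, at 1.17 (0.869 to 1.56) in set1Δ and 2.07 (1.41 to 3.003) in WT.

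The remaining ratios were 0.953 (0.825 to 1.10) in set1Δ and 1.67 (1.42 to 1.95) in WT for SSA3, and 0.542 (0.126 to 1.83) in set1Δ and 2.40 (0.775 to 6.98) in WT for DDR2. HSP30 gave 0.124 (0.00291 to 0.840) in set1Δ from 1 and 12 reads, and 1.25 (0.289 to 4.21) in WT from 4 and 11 reads. Past a 2-fold change on the log2(CPM + 1) scale, 0 of 9 members were up in set1Δ (2.81% of all tested features) and 3 were down (HSP12, HSP30 and CTT1; 4.17% of features). In WT, 7 were up (10.3% of features) and 0 were down (9.35%). Changes were negative for 7 members in set1Δ, with a median of −0.60 over the 9, and positive for all 9 in WT, with a median of 1.33, where all tested features had medians of −0.01 in set1Δ and −0.03 in WT. HSP12 and CTT1 were past 2-fold up in WT and down in set1Δ at once, as were 0.178% of tested features (9).

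Over both strains together, each side of the arrest comparison held a single library per strain. Its spread was that of the strain difference between time points, not between cultures. There edgeR called 0 members at 0 min against the asynchronous cultures, where 2.77% of features were called higher and 1.84% lower. At an unadjusted p below 0.05 there was 1, HSP26 (log2 change 1.62 ± 0.47 SE, adjusted p = 0.062), which DESeq2 called (adjusted p = 0.0167), as did edgeR without the 120 min libraries (adjusted p = 0.0478). The difference between the strains in this change was tested with a term of its own, chosen after the values were seen, whose spread came from the other 8 time points. It was negative for all 9 members, with a median of −2.11 against 0.01 for all features. None passed adjustment in edgeR, and neither did any other feature (0% higher, 0% lower). An unadjusted p below 0.05 was found for 4 members, a level where the share of all features was not counted. HSP12 stood at −3.001 ± 0.59 (adjusted p = 0.137), CTT1 at −3.55 ± 1.03 (adjusted p = 0.637), HSP42 at −1.90 ± 0.58 (adjusted p = 0.675) and SSA4 at −2.40 ± 0.91 (adjusted p = 0.876). On poly(A) reads alone, an alternative that was not planned, HSP12 was called, at −3.17 (adjusted p = 0.00847). The share of all features called there was not counted. There CTT1 stood at −1.77 (adjusted p = 0.851), HSP26 at −0.67, against −1.51 on all reads, SSA4 at −2.18 and HSP42 at −1.96.

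The first 15 min after the wash brought the largest levels of HSP12, HSP26, HSP42, SSA4, CTT1 and DDR2 in both strains. Of the 9 members, 4 rose over both strains in edgeR, where 1.52% of features were called higher and 0.158% lower. They were DDR2 (log2 change 2.63 ± 0.47 SE, adjusted p = 0.00747), HSP12 (2.68 ± 0.56, adjusted p = 0.0213), CTT1 (2.69 ± 0.58, adjusted p = 0.0224) and HSP42 (1.49 ± 0.35, adjusted p = 0.0375). All 9 changes were positive, with a median of 1.53 against −0.01 for all features. The fit takes this step as common to the strains, though its size differed between them, as given below. Its SE and p-values come from how the strain difference varied between time points, not from repeat cultures. The calls of DDR2 and CTT1 held in every alternative that tested them, but the change of CTT1 was 4.21 on poly(A) reads (adjusted p = 1.76e-04). HSP12 lost its call on poly(A) reads (adjusted p = 0.0847) and without the libraries of 105 and 120 min (0.0874). HSP42 lost it when the 30, 45, 60, 90 or 105 min libraries were left out (adjusted p up to 0.0619), and HSP26 was called when those of 120 min were (adjusted p = 0.0388). SSA4 (1.70 ± 0.53, adjusted p = 0.143) and HSP26 (1.53 ± 0.41, adjusted p = 0.0681) were not called on all reads and were called on poly(A) reads (adjusted p = 0.00512 and 0.0442). HSP30 stood at 1.34 ± 0.81, HSP104 at 0.63 ± 0.35 and SSA3 at 0.07 ± 0.44 with adjusted p of 0.603 or more.

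Within the strains, the step at 15 min over 0 min was larger in set1Δ for 8 of the 9 genes. The share of all tested features with a larger step in set1Δ was not counted. HSP12 had 871 CPM at 15 min and 36.1 CPM at 0 min in set1Δ, a ratio of 24.1 (18.5 to 32.1), and 1635 and 433 CPM in WT, a ratio of 3.78 (3.34 to 4.29). CTT1 gave a ratio of 32.9 (12.6 to 122) in set1Δ, from 145 and 4 reads, and 2.58 (1.60 to 4.37) in WT. SSA4 gave 8.43 (6.90 to 10.4) in set1Δ and 1.54 (1.31 to 1.82) in WT. These larger ratios in set1Δ started from lower levels at 0 min, and the 2 steps share that library.

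DDR2 gave a ratio of 12.5 (4.60 to 47.4) in set1Δ and 3.29 (1.45 to 8.71) in WT, HSP26 5.07 (3.35 to 7.95) in set1Δ and 1.63 (1.03 to 2.67) in WT, and HSP42 3.78 (2.67 to 5.49) in set1Δ and 2.31 (1.76 to 3.06) in WT. HSP104 was the exception, at 1.42 (1.08 to 1.89) in set1Δ and 1.57 (1.11 to 2.24) in WT. SSA3 gave 1.38 (1.20 to 1.60) in set1Δ and 0.800 (0.674 to 0.951) in WT. HSP30 in set1Δ rested on 7 reads against 1 (6.35, 0.815 to 286), and in WT gave 1.48 (0.425 to 6.44). Past 2-fold, 7 members were up in set1Δ (8.44% of features) and 0 were down (3.38%), and in WT 4 were up (6.68%) and 0 were down (3.75%). HSP12, HSP42, CTT1 and DDR2 were past 2-fold up in both strains, as were 2.63% of features.

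**Figure D2:**
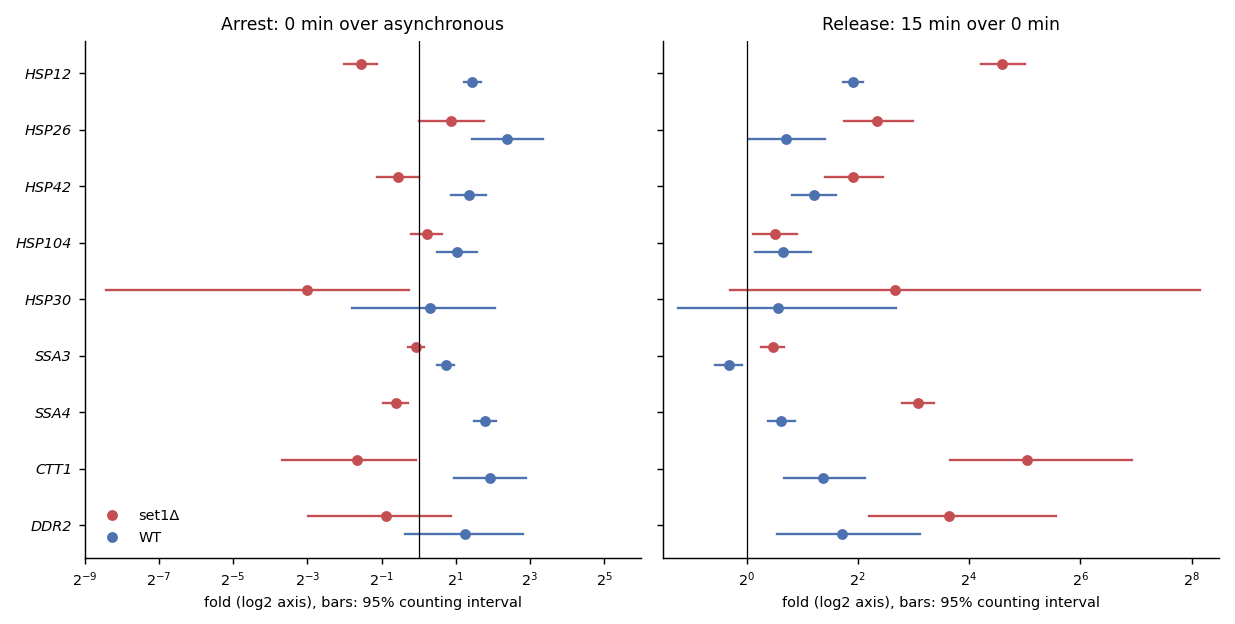
Fold of the CPM at 0 min over the asynchronous culture (left) and at 15 min over 0 min (right), on a log2 axis, in set1Δ (red) and WT (blue), with 95% exact counting intervals from 1 library on each side. On the left the set1Δ point lies to the left of that of WT for all 9 genes, and on the right HSP12 stands at 24.1 in set1Δ and 3.78 in WT.

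The number of stress response elements was set beside this change as a description. The genes with 4 or 5 matches, DDR2 and HSP12, had log2 changes of 2.63 and 2.68. The 5 genes with 3 matches spanned 0.63 for HSP104 to 2.69 for CTT1. Of the genes with none, HSP30 had 1.34 ± 0.81 from few reads and SSA3 had 0.07 ± 0.44. On poly(A) reads SSA3 had 0.52 and was not called. The heat shock runs of HSP42 and HSP104, shown above, went with 1.49 and 0.63.

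**Figure D3:**
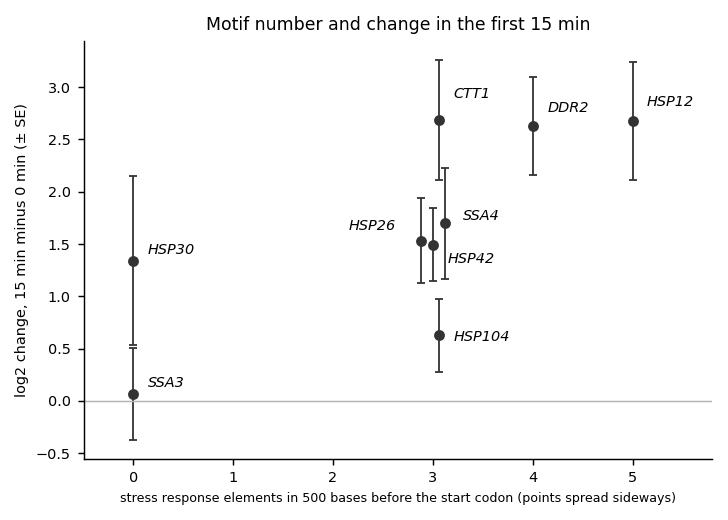
Log2 change in the first 15 min over both strains (edgeR estimate, bars ± SE) against the number of stress response elements in the 500 bases before the start codon, 1 point per gene, spread sideways where they coincide. SSA3, with 0 matches, is near 0 (0.07), and HSP12, with 5, is at 2.68. HSP30, also with 0, is at 1.34, and genes with 3 matches span 0.63 (HSP104) to 2.69 (CTT1).

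By 60 min most members had come down. Against the asynchronous cultures, 0 of 9 were called at 60 min in edgeR (0.119% of features higher, 0.0988% lower), and 1, HSP42, had an unadjusted p below 0.05 (log2 change 0.90 ± 0.35, adjusted p = 0.419). All 9 changes were positive, with a median of 0.71 against 0.01 for all features. Over the 9 time points after release, a spline fit called HSP12, HSP26, HSP30, SSA4 and DDR2 for a change over time in set1Δ (5 of 9, with 15.8% of features called). In WT it called HSP12, HSP26, HSP42, HSP104 and SSA3 (5 of 9, with 39.3% of features called). For the difference of the time profiles between the strains 4 had an unadjusted p below 0.05, a level where the share of features was not counted. After adjustment this test called 0 of 9 (12.5% of features), so the unlike lists of the strains were not shown to differ. HSP104 came nearest (adjusted p = 0.0678). With 6 degrees of freedom in place of 5 the difference of profiles called 3 members, and the share of all features was not counted there.

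Averaged over all 10 time points, HSP42 and HSP12 were the members that were lower in set1Δ, and 0 were higher, where 10.5% of features were lower and 8.44% higher. HSP42 differed by −0.90 ± 0.16 (log2, SE, adjusted p = 8.07e-04, edgeR) and was called in every alternative. HSP12 differed by −0.79 ± 0.25 (adjusted p = 0.0351). Its call was lost on poly(A) reads (adjusted p = 0.0957), without 105 and 120 min (0.0583), with no filter on low counts (0.0548) and with no term for time (0.493). It was also lost when the asynchronous, 15, 30, 45, 60, 75 or 90 min libraries were left out (up to 0.0653). Without the 0 min libraries HSP12 stood at −0.54 (adjusted p = 0.0101). In the same comparison 4 of 6 a cell markers were lower in set1Δ and 0 higher (median −1.499), with the smallest p for ASG7 (−3.54) and STE2 (−1.31), and 7 of 8 pheromone response genes were lower and 0 higher (median −2.90). Their part in the lower HSP12 and HSP42 was not tested. No label names a repeat culture, so each strain was taken as 1 culture. Genes were tested over its time points, so these p-values measure the spread of the strain difference between time points, not between cultures.

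The others were not called: SSA4 stood at −0.48 ± 0.24 (adjusted p = 0.169), CTT1 at −0.37 ± 0.28, SSA3 at −0.32 ± 0.20, DDR2 at −0.15 ± 0.23 and HSP30 at −0.02 ± 0.26. HSP26 (0.35 ± 0.19, adjusted p = 0.221) and HSP104 (0.35 ± 0.16, adjusted p = 0.127) had the other sign. Without the 0 min libraries HSP26 was called higher in set1Δ (0.51, adjusted p = 0.0455). The median of the 9 was −0.32, against −0.01 for all features. The lowest strain difference of HSP12, HSP26, HSP42, HSP30, CTT1 and DDR2 was at 0 min, from −1.10 for HSP26 to −3.55 for HSP12 on the log2(CPM + 1) scale. For HSP104 it was at 15 min (−0.46), and for SSA3 (−2.14) and SSA4 (−2.22) at 120 min, the WT library with the lowest share of poly(A) reads.

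PAT-seq also measures the poly(A) tail, which grows as an mRNA is made and shortens as it ages. HSP12 tails were short and changed with time. In set1Δ their mean length was 15.6 nt in the asynchronous culture, 13.7 nt at 0 min and 21.4 nt at 15 min, then 13.8, 10.2, 9.45, 13.5, 18.5, 21.2 and 20.3 nt from 30 to 120 min. In WT it was 17.1 nt in the asynchronous culture, 16.3 nt at 0 min and 19.8 nt at 15 min, then 13.0, 9.71, 9.97, 15.8, 20.0, 20.1 and 22.1 nt. Both strains had a peak at 15 min, when the RNA level was highest, and a trough at 45 to 60 min, while the level was still above that of the asynchronous culture. Tails were long again late, when the level was low. They measured 21.2 nt at 105 min in set1Δ (44.5 CPM) and 22.1 nt at 120 min in WT (41.1 CPM), the longest WT value. The median over all features with at least 10 poly(A) reads stayed between 26.8 and 32.2 nt. At 45 and 60 min 0.165% and 0.167% of features in set1Δ and 0.121% and 0.141% in WT had a shorter mean tail than HSP12. The values at 0 and 90 min in set1Δ and 105 and 120 min in WT rest on 28 to 47 poly(A) reads each.

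In limma's F-test over the time points, chosen after the values were seen, HSP12 had the smallest p of 4253 tested features (adjusted p = 0.00336), and 4 features passed (0.0941%). Without a trend in limma's variance the adjusted p was 0.0501. Of the other 4 members with enough poly(A) reads, none was called: HSP42 (adjusted p = 0.183), SSA4 (0.284), HSP104 (0.479) and SSA3 (0.769). HSP42 had its lowest mean tail at 15 min in both strains (16.0 nt in set1Δ and 20.3 nt in WT), when its level was highest, which is the time of the longest HSP12 tails in set1Δ.

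No member's tail length was called between the strains. For the difference between set1Δ and WT 0 of 5 members were called in limma (0% of features longer, 0.0934% shorter), and 0 had an unadjusted p below 0.05. HSP12 tails differed by −0.61 ± 0.55 nt and HSP104 tails by −2.39 ± 1.15 nt (adjusted p = 0.389), against a median of −0.66 nt over all features. For the arrest over both strains 0 of 5 were called (0% of features longer, 0% shorter), also 0 at an unadjusted p below 0.05, with HSP12 at −1.40 ± 1.22 nt and SSA3 at −5.51 ± 5.17 nt.

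**Figure D4:**
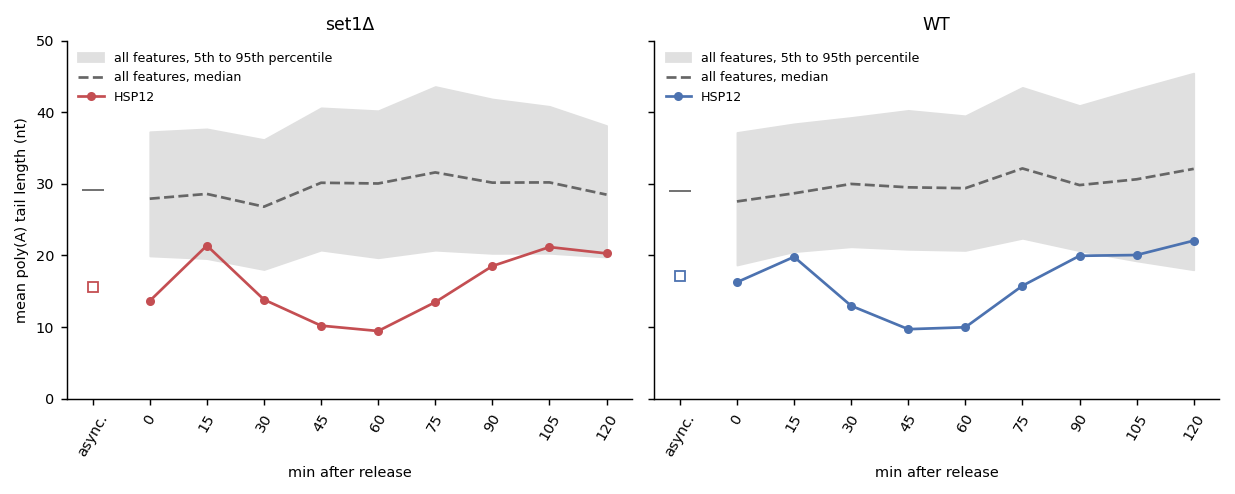
Mean poly(A) tail length (nt) of HSP12 against minutes after release in set1Δ (left) and WT (right), 1 library per point, with the median (dashed) and the 5th to 95th percentile (grey) of all features with at least 10 poly(A) reads; the open square and the short dash at the left are the asynchronous cultures. HSP12 falls to 9.45 nt at 60 min in set1Δ and 9.71 nt at 45 min in WT, below the grey band.

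The members moved together unevenly. Against the mean profile of the other 8 over the 20 libraries, Pearson's r was 0.86 for CTT1, 0.83 for SSA4, 0.79 for HSP42, 0.78 for DDR2, 0.74 for HSP26, 0.61 for HSP104, 0.56 for HSP12, 0.22 for HSP30 and 0.04 for SSA3. Levels on the log2(CPM + 1) scale were first centred within each strain. A difference in mean level between the strains therefore does not enter r, here or below. These values describe the libraries, which share depth and scaling. Of 3280 other features with a mean of at least 50 reads, those most like the members' mean profile were CAR1 (arginase, r = 0.95), SSE2 (a nucleotide exchange factor for Hsp70, r = 0.87), MCH4 (a transporter-like protein, r = 0.85), TFS1 (an inhibitor of carboxypeptidase Y, r = 0.81) and RTC3 (r = 0.81), over 20 libraries.

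Of 30 other general stress genes, most of them targets of Msn2 and Msn4, 26 could be tested. In the first 15 min 6 rose and 0 fell, against 1.52% of all features higher and 0.158% lower, with a median of 1.29 against −0.01 for all features. They were SPI1 (a cell wall protein, 3.48), RTN2 (a reticulon, 2.96), YGP1 (a cell wall glycoprotein, 2.91), ALD3 (2.69), MSC1 (2.22) and SOL4 (2.09). In the arrest over both strains 0 rose and 1 fell, YGP1 (−2.73), where 2.77% of all features were higher and 1.84% lower. Between the strains 0 were higher and 6 lower in set1Δ, where 8.44% of all features were higher and 10.5% lower. The median was −0.32 against −0.01 for all features, with the smallest p for DDR48 (−1.29), a feature merged with an overlapping reading frame, and GPD1 (−0.99), the glycerol synthesis enzyme of osmotic stress.

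Of 19 other chaperones and cochaperones, mostly made in unstressed cells as well, 0 rose and 0 fell in the first 15 min, with a median of −0.39 against −0.01 for all features, and 0 changed in the arrest. Between the strains 5 were higher and 0 lower in set1Δ, beside the 8.44% and 10.5% of all features, with a median of 0.43 against −0.01. The smallest p were those of the mitochondrial Hsp70 SSC1 (0.54) and the Hsp90 HSC82 (0.55). The mRNAs of the factors and kinases that control the response, 14 of 15 tested, included HSF1, MSN2 and the protein kinase A subunits, but not MSN4. They gave 0 calls in the strain difference, the arrest, the first 15 min and the 60 min comparison. Of all features, 2.77% were higher and 1.84% lower in the arrest, 1.52% and 0.158% in the first 15 min, and 0.119% and 0.0988% at 60 min. For the strain difference these shares were 8.44% and 10.5%. MSN2 had the smallest p of these genes in the arrest (log2 change −1.02, adjusted p = 0.111, edgeR). Of 10 ribosome biogenesis genes, which growing cells express and stressed cells reduce, 5 were higher and 0 lower in set1Δ, beside the same 8.44% and 10.5% of all features, with a median of 0.41 against −0.01. RPF2 (0.68) and NOP7 (0.57) had the smallest p, and 0 changed in the arrest and in the first 15 min.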

How the data were processed

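PAT-seq libraries of set1Δ and WT yeast, 10 each, were grouped by the sample labels, 1 library per strain and time point. The authors deposited a table of raw read counts per feature, a table of poly(A) read counts, and a table of mean tail lengths in nucleotides over those reads. Bowtie, Bowtie2 2.2.5 and the build sacCer3 are listed in the submitters' processing notes. The sources used here do not give the counting tool or its strand setting. All columns matched samples by name.

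Counts were fitted in edgeR 4.0.16 (R 4.3.3, quasi-likelihood, robust, TMM) over all features with a mean of at least 10 reads (5060 of 6532), with time point as a factor and strain as a term, so that set1Δ and WT are compared within time points. Changes between time points over both strains come from this fit, so their spread is that of the strain difference between time points. Profiles after release used splines of 5 degrees of freedom (5038 features). Tail lengths from at least 10 poly(A) reads, with at least 8 values per strain, were fitted in limma 3.58.1 (trend, robust). P-values were adjusted by Benjamini-Hochberg over all features and called below 0.05. Shares of features called are at adjusted p, also where members are counted at an unadjusted p below 0.05. Log2 and fold values compare set1Δ with WT, or the later time with the earlier. Single steps used log2(CPM + 1). The DESeq2 version was 1.42.0. Promoter sequences and coordinates come from NCBI's R64 reference, the assembly that sacCer3 corresponds to.

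The members and gene lists were chosen with earlier results of these data known. All 9 members are named for their levels, the steps within each strain, the first 15 min and the strain difference, and only some in other comparisons. Of each list, up to 2 genes of smallest p are named in the strain difference and in the arrest. The list genes named for the first 15 min were chosen after their values were seen. Simulated data were used to try the fits of the strain difference, the arrest, the time profile in WT and tail length between strains. The first 15 min step, the strain difference in the arrest and tail length over time were not simulated. No label names a repeat culture. Library depth limits precision for HSP30, DDR2 and CTT1, which have few reads, and counting intervals cover counting error only.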

Additional observations from a re-analysis of the deposited data

Results flagged for a closer look

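HSP12, SSA4 and CTT1 were lower at 0 min than in the asynchronous culture in set1Δ and higher in WT, with counting intervals clear of a ratio of 1 in both strains. The log2 difference between the strains in that change was −3.001 for HSP12, −2.40 for SSA4 and −3.55 for CTT1. In edgeR with a term for this difference none passed adjustment on all reads (adjusted p = 0.137, 0.876 and 0.637). The comparison rests on 4 libraries, of which the WT library at 0 min held 668987 reads and the set1Δ library at 0 min 1531047 reads. CTT1 had 4 reads at 0 min in set1Δ. On poly(A) reads the difference was −3.17 for HSP12 (adjusted p = 0.00847), −2.18 for SSA4 (adjusted p = 0.231) and −1.77 for CTT1 (adjusted p = 0.851), and the change of CTT1 in WT was then 0.11 (log2). The share of all features called on poly(A) reads was not counted. The pheromone response genes, which mark the arrest, summed to 5388 CPM in set1Δ and 8158 CPM in WT at 0 min, and their part in these differences was not tested.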

How the results depend on the processing

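Of 971 values under alternatives, 884 kept their direction and their side of the threshold, 29 lost and 18 gained a call, 30 counts or untested values moved and 10 changed sign. Members lower in set1Δ numbered 2, and 1 with no filter on low counts, with poly(A) reads, without 105 and 120 min, and with no replicate block (strain alone, no term for time). They numbered 1 to 2 when single time points were left out, and members higher in set1Δ 0 to 1. Members called higher in the arrest numbered 0, and 1 with DESeq2 and without the libraries of 105 and 120 min. That number was 0 to 1 when single time points were left out. With no term for time HSP12 had an adjusted p of 0.493. Some uncalled values changed sign. With poly(A) reads the arrest change was −0.033 for SSA3 and −0.64 for CTT1. The strain difference of HSP30 was 0.10 with no replicate block and −0.14 to 0.093 over the leave-outs. The strain difference in tail length without 105 and 120 min was 0.11 nt for HSP42, −0.72 nt for SSA3 and −0.052 nt for SSA4. Splines of 4 degrees of freedom called 3 members in set1Δ and 3 in WT, and 3 in WT also without 105 and 120 min. Splines of 6 called 8 in WT and 3 for the difference of profiles. Poly(A) reads left 2 in set1Δ. The share of all features called was not counted under these spline alternatives, so these member counts have no baseline. The tail length change over time called 0 members without a trend. The difference between strains in the arrest called 1 on poly(A) reads, with the share of all features not counted. In set1Δ the arrest had 1 member past 2-fold down with a pseudocount of 5, 1 up with poly(A) reads, and 1 up and 5 down past 1.5-fold. The causes were not tested. HSP30 and DDR2 fell below the minimum of 10 on poly(A) reads and have no value there. Without the filter on low counts, the shares of features past 2-fold in the arrest were 3.63% up and 5.11% down in set1Δ and 11.2% up and 9.71% down in WT. The tests of the strain difference in the arrest and of tail length over time, and the 500-base window, were added after the data were seen.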
